A study of Dendrobium officinale with 6 samples.

Results

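A group of 61 leaf genes of the orchid Dendrobium officinale was low in control leaves and much higher in leaves treated with methyl jasmonate (MeJA). They were chosen from 60597 assembled genes by 3 conditions on the measured levels. The mean of the 3 control libraries was under 10 TPM, the mean of the 3 MeJA libraries was at least 50 TPM, and the lowest MeJA value was at least 4 times the highest control value. TPM is transcript abundance corrected for transcript length and scaled so that each library sums to 1000000. The 61 genes are 0.101% of all genes, 0.132% of the 46082 genes under 10 TPM in controls and 1.92% of the 3180 genes at 50 TPM or more under MeJA. Since these values chose the genes, the size of their rise is given as a description, with no test.

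MeJA is the volatile methyl ester of jasmonic acid, a plant hormone of wounding and defence. In the pathway as worked out in Arabidopsis, jasmonate is conjugated to isoleucine, and the conjugate is bound by the receptor COI together with JAZ repressors. The JAZ proteins are then degraded, which releases MYC transcription factors to act on genes of defence and specialised metabolism. In many plants the targets include genes of terpenoid and alkaloid synthesis, and some Dendrobium species are known for sesquiterpene alkaloids such as dendrobine.

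The leaves came from plants 6 months old, kept at 25 °C with 12 h of light a day. Treated leaves were sprayed with 100 µM MeJA in ethanol and taken at 24 h, and control leaves were sprayed with the ethanol solvent alone. The time at which control leaves were taken is not given in the labels, so a difference in time and the effect of MeJA cannot be told apart. Each group holds 3 RNA sequencing libraries, and the labels do not say whether these came from separate plants, so that the spread between them may be technical. The identifiers are those of a de novo assembly and are paired with no gene name or sequence in the files. No member can therefore be assigned a product or a place in the jasmonate pathway here, no sequence is shown, and the leaf label was not checked against marker genes. A bulk level also cannot tell apart more cells of a type and more RNA per cell.

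In control leaves the 61 genes were low but mostly not silent. Their median control mean was 5.35 TPM, above the median of all genes, 3.17 TPM, and 42 of the 61 lay above that overall median. A control mean of 5 to 10 TPM was found in 31 members, 1 to 5 TPM in 24 and under 1 TPM in 6. All 3 controls were above 0 in 57 members, and a single member was listed at 0 in all 3. The description as nearly silent thus holds for few of the members, and they are called low-control genes here. With read depth unknown, a listing at 0 does not show that a gene was off.

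**Figure D1:**
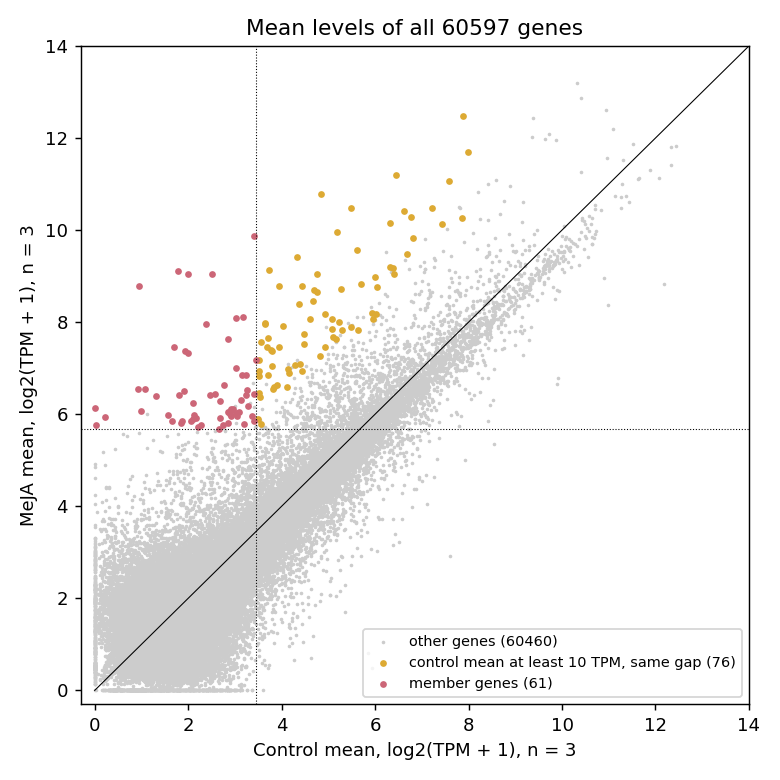
Control mean against MeJA mean on the log2(TPM + 1) scale for all 60597 genes, each mean over 3 libraries. The dotted lines mark 10 TPM in controls and 50 TPM under MeJA, the solid line marks equal levels, and the 61 member genes lie in the upper left, beside the 76 genes that meet the same gap from 10 TPM or more in controls.

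Under MeJA the low-control genes reached means of 50.2 to 938 TPM, with a median of 71.6 TPM. Most of them, 45, lay between 50 and 100 TPM, 8 between 100 and 200 TPM, 4 between 200 and 500 TPM and 4 above 500 TPM. By mean level under MeJA the highest member ranked 74 among all genes and the lowest ranked 3170, and 7 members were among the 500 most abundant genes. In controls the members ranked 14567 at best. The ratio of the MeJA mean to the control mean was 5.84 at the lowest, with a median of 17.4 over the 60 members that had a control mean above 0. It was under 10 in 14 members, 10 to 20 in 21, 20 to 50 in 10 and above 50 in 15.

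Library by library, the median member stood at 4.68, 4.01 and 5.63 TPM in control libraries 1, 2 and 3. The median over all genes was 3.16, 3.15 and 3.26 TPM in the same libraries. Under MeJA the median member stood at 74.4, 68.0 and 82.4 TPM in libraries 1, 2 and 3, while the median over all genes was 2.86, 3.21 and 2.47 TPM. Summed over the 61 genes, the level was 301 TPM, 256.5 TPM and 359 TPM in the controls and 8383, 5455 and 10314 TPM under MeJA. The members thus held 0.0306% ± 0.0052 (SD, n = 3) of the total in control leaves. Under MeJA they held 0.805% ± 0.245 (SD, n = 3), 26.3 times as much. The 5 highest members made up 28.5% to 41.1% of the summed level in the MeJA libraries and 4.61% to 8.36% in the controls.

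**Figure D2:**
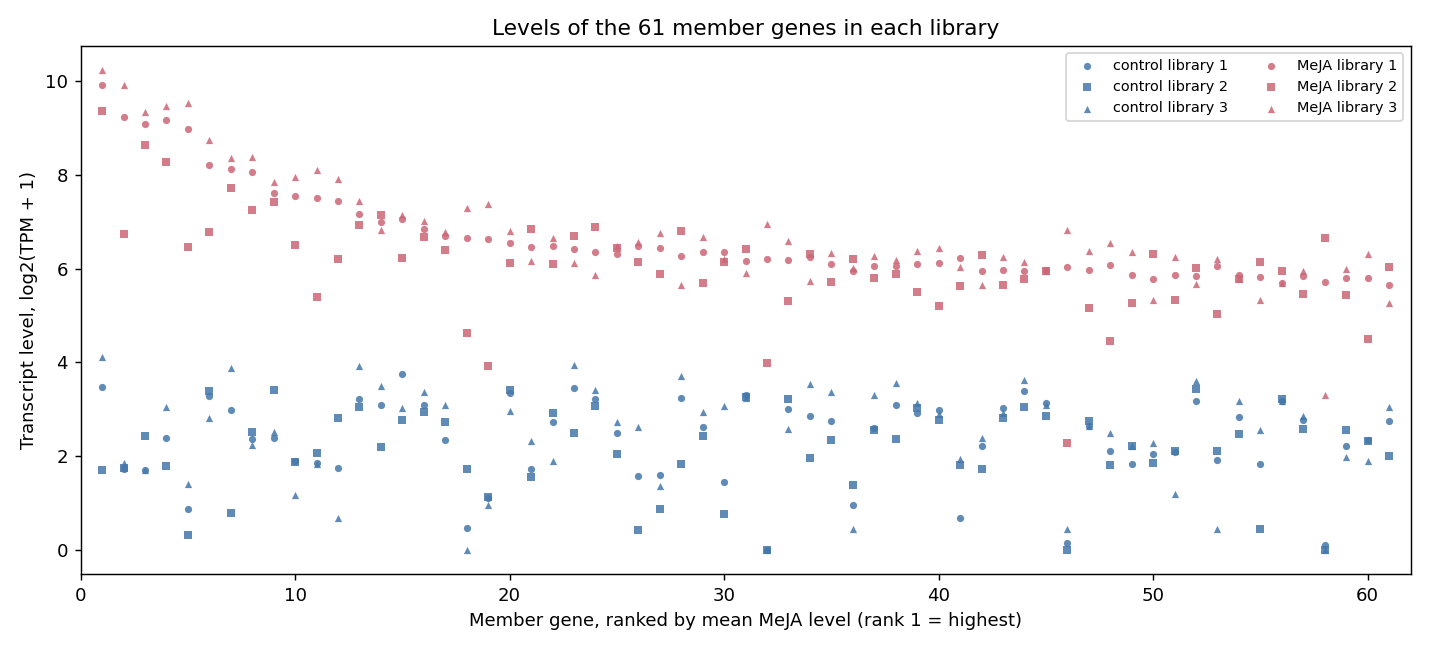
Levels of the 61 member genes in each library on the log2(TPM + 1) scale, ordered by mean MeJA level. Blue marks are the 3 controls and red marks the 3 MeJA libraries, and MeJA library 2 (red squares) falls far below the other MeJA libraries at ranks 2, 5, 11, 18, 19, 32 and 46, while library 3 (red triangle) does so at rank 58.

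The highest member under MeJA, TRINITY_DN11638_c0_g1, held 10.2, 2.28 and 16.2 TPM in control libraries 1, 2 and 3 and 957, 656 and 1200.3 TPM in MeJA libraries 1, 2 and 3. The lowest MeJA value was 40.4 times the highest control value, and the ratio of the means was 98.0. The controls of this gene were themselves uneven, with library 2 far below library 3. On the log2(TPM + 1) scale its MeJA minus control difference was 6.73 ± 0.60 (SE).

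The member ranked 2 held 2.31, 2.37 and 2.62 TPM in controls, a narrow range, and 598, 106 and 960 TPM under MeJA, a wide one. MeJA library 3 was thus 9.03 times library 2 in this gene. The member ranked 3 held 2.28, 4.43 and 2.26 TPM in controls and 542, 398 and 646 TPM under MeJA. Its lowest MeJA value was 89.8 times its highest control value, and its MeJA libraries lay closer together than those of rank 2.

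At rank 4, control levels of 4.24, 2.49 and 7.25 TPM stood against 570, 309 and 700.2 TPM under MeJA. At rank 5 the controls held 0.84, 0.26 and 1.65 TPM and the MeJA libraries 499, 86.8 and 735 TPM. This gene had the largest difference of the 61 on the log2(TPM + 1) scale, 7.44. In both genes library 2 was the lowest MeJA library and library 3 the highest.

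The members ranked 6 to 8 had MeJA means of 277, 272 and 248 TPM. Rank 6 went from 8.77, 9.45 and 6.03 TPM to 294, 109 and 428 TPM. Rank 7 went from 6.94, 0.72 and 13.7 TPM to 279, 210 and 327 TPM, so that its controls differed far more among themselves, relative to their level, than its MeJA libraries did. Rank 8 had even controls, at 4.16, 4.71 and 3.75 TPM, and stood at 263, 151 and 330 TPM under MeJA.

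The next 4 members complete the 12 most abundant, with MeJA means of 161 to 197 TPM. Rank 9 held 4.21, 9.63 and 4.70 TPM in controls and 193, 170.2 and 228 TPM under MeJA. Rank 10 held 2.76, 2.66 and 1.27 TPM in controls and 184, 90.1 and 247 TPM under MeJA. In both, as in each of the 12, MeJA library 2 was lowest and library 3 highest.

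Rank 11 rose from 2.63, 3.18 and 2.58 TPM to 180, 41.2 and 275 TPM, another gene in which library 2 stood apart. Rank 12 went from 2.39, 6.05 and 0.61 TPM to 172, 72.8 and 239 TPM. The remaining 49 members had MeJA means of 50.2 to 144 TPM.

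The 6 members with a control mean under 1 TPM came nearest to being silent in controls. TRINITY_DN3565_c0_g1, rank 58, held 0.08 TPM in control library 1 and was listed at 0 in the other 2, against 51.3, 99.3 and 8.92 TPM in MeJA libraries 1, 2 and 3. Its lowest MeJA value was 112 times its highest control value, the widest such gap among the members with a control above 0. That gap rests on the 0.08 TPM of control library 1, and without a known depth its size cannot be read closely. Library 2 was here the highest MeJA library and library 3 the lowest, the reverse of the most abundant members.

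The member listed at 0 in all 3 controls was rank 32, with 72.9, 14.8 and 122 TPM under MeJA. It shares its assembly component with rank 5, and its MeJA libraries stand in the same order. Rank 46 held 0.12, 0 and 0.37 TPM in controls and 64.3, 3.86 and 112 TPM under MeJA. Its MeJA values had the largest coefficient of variation of the 61 (SD as a percentage of the mean), 90.3%.

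Rank 36 was even under MeJA, at 61.0, 73.1 and 63.9 TPM, from 0.96, 1.63 and 0.37 TPM in controls. Rank 18 held 0.38, 2.32 and 0 TPM in controls and 99.1, 23.8 and 156 TPM under MeJA. Of these 6 members, rank 36 alone had even MeJA libraries, with a coefficient of variation of 9.62%. At ranks 5, 18, 32, 46 and 58 it was 71.35% to 90.3%.

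The conditions of the rule cut through a continuous range. At the gap condition, the member nearest the limit had a lowest MeJA value 4.07 times its highest control, and the nearest gene outside, with 9.61 TPM in controls and 70.8 TPM under MeJA, had 3.91 times. Of the 70 genes under 10 TPM in controls and at 50 TPM or more under MeJA, 9 failed this condition, and in 8 of those each MeJA library was above each control, as it was in 11.4% of all genes. At the control limit, the member with the highest control mean had 9.93 TPM and the nearest gene outside 10.2 TPM. At the MeJA limit, the lowest member had 50.2 TPM and the nearest gene outside 48.8 TPM. A further 558 genes under 10 TPM in controls had the same gap but stayed under 50 TPM under MeJA. With control and MeJA exchanged, the same 3 conditions were met by 7 genes.

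All 61 members were called higher by limma, a moderated linear model fitted to all genes (Benjamini-Hochberg adjusted p under 0.05), against 6.15% of the 55498 genes tested. The rule used the same contrast, so nothing is read from this count. With libraries 2 and 3 of each group alone, 18 members were called, and over all tested genes the higher calls fell from 3415 to 109. On the log2(TPM + 1) scale the median difference of the members was 3.86, with a range of 2.43 to 7.44, beside a median of -0.17 over all tested genes. Median-ratio size factors moved the median over all tested genes to -0.01, and the members' median to 4.04. The balance of all calls turned with this scaling, from 3415 higher and 6966 lower in the deposited values to 4493 higher and 3737 lower.

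Genes were also chosen on 2 libraries of each group, by the same rule, and the library of each group that was left out was then read. This was done for all 9 pairs of 1 control and 1 MeJA library. The left-out values did not pick the genes. The limits of the rule were set with earlier results of these data known, however, so the left-out values are not independent of it. The rule then chose 52 to 78 genes. In the libraries left out, 87.3% to 100% of the chosen genes were at least 4 times higher in the MeJA than in the control library. In each pair 45 to 60 of the chosen genes were also members, and by the rule a member differs at least 4-fold in every pair. The median ratio of the left-out pair was 9.94 to 19.2 over the chosen genes with a control value above 0.

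With MeJA library 1 left out, together with control library 1, 2 or 3, the 4-fold difference was found in 62 of 62, 60 of 61 and 71 of 72 chosen genes, beside 7.33%, 7.75% and 7.21% of all genes. With MeJA library 3 left out, it was found in 54 of 54, 52 of 52 and 60 of 64 chosen genes, beside 6.32%, 6.96% and 6.42% of all genes. With MeJA library 2 left out, it was found in 64 of 69, 62 of 71 and 72 of 78 chosen genes, beside 8.05%, 8.73% and 7.79% of all genes. The lowest share was thus that of MeJA library 2 with control library 2, and in all 71 genes there the MeJA value was above the control value. In 2 of the 9 pairs, 1 chosen gene was not higher in the left-out MeJA library. Libraries of 1 group are not known to be independent, so these shares describe how alike the libraries are.

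The MeJA libraries differed strongly in how high the low-control genes stood. The coefficient of variation over the 3 MeJA libraries had a median of 26.3% over the members, with quartiles of 17.4% and 40.0%. It was 50% or more in 12 members and under 10% in 5. The most even was rank 45, at 61.7, 60.8 and 60.9 TPM.

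In 2 comparison sets the same measure was lower. The first set is the 76 genes that met the gap and MeJA conditions from 10 TPM or more in controls, and their median was 14.7%. The second is all 3180 genes averaging 50 TPM or more under MeJA, with a median of 8.36%. These medians are a description, and the mean level and the gap were part of the choice. Without MeJA library 2 the members' median was 14.5%.

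**Figure D3:**
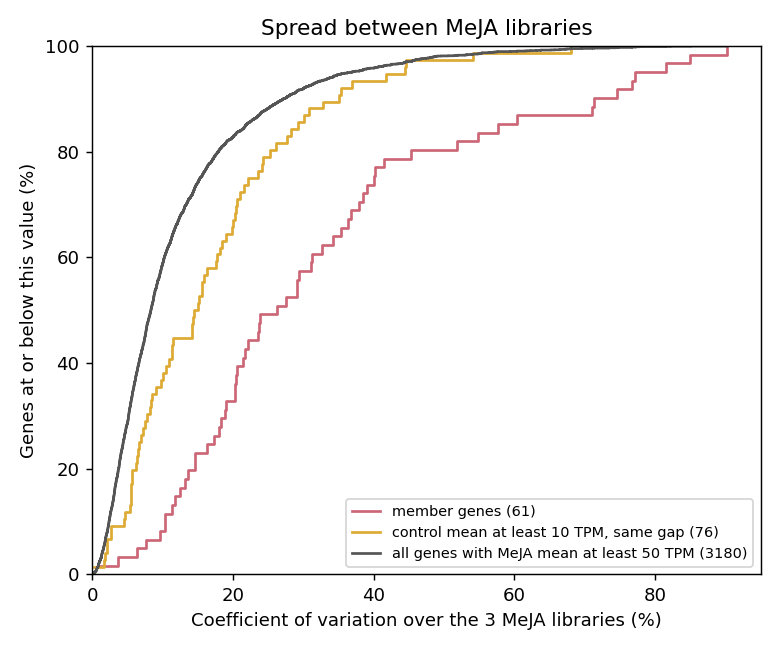
Cumulative share of genes by coefficient of variation over the 3 MeJA libraries, for the 61 member genes, the 76 genes with the same gap from 10 TPM or more in controls, and the 3180 genes averaging 50 TPM or more under MeJA. The curve of the members lies to the right, with medians of 26.3%, 14.7% and 8.36% in that order.

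MeJA library 3 held the highest of the 3 values in 42 of the 61 members, library 2 in 15 and library 1 in 4. Library 2 held the lowest in 44. Library 3 was at least 2 times library 2 in 19 members and at least 5 times in 7, while library 2 was at least 2 times library 3 in 3 members and at least 5 times in 1. Among the 76 genes with the same gap from a higher control level, library 3 was at least 2 times library 2 in 9.21%, against 31.1% of the members. Among the 3180 genes it was so in 3.05%.

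The comparison of library order with other genes depended on the scaling. In the deposited values library 3 was highest in 68.9% of the members, 56.6% of the 76 genes and 32.9% of the 3180 genes. With median-ratio size factors, which align the libraries on the typical gene, the shares were 73.8%, 69.7% and 62.0%. With quantile normalization they were 68.9%, 51.3% and 40.2%. The members were above the other 2 sets in each case. The amount was 4.03 (size factors) to 17.5 percentage points against the 76 genes. Against the 3180 genes, which include the members, it was 11.8 to 36.0 percentage points.

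A pair of orders accounted for most members. In 41 genes library 3 was highest and library 2 lowest, and this group included each of the 13 most abundant members. Its MeJA means had a median of 83.9 TPM, and its highest MeJA library was 1.90 times its lowest at the median and 29.0 times at most. In 14 genes library 2 was highest and library 3 lowest. That group began at rank 14, reached no more than 126 TPM, and had a ratio of highest to lowest of 1.58 at the median and 11.1 at most, the latter at rank 58. The other 6 members had a median ratio of 1.15 and a ratio of 1.51 at most.

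Rank 14 illustrates the second order, with 126, 141 and 112 TPM in MeJA libraries 1, 2 and 3 and 7.59, 3.61 and 10.3 TPM in controls. Rank 28, at 75.6, 111 and 49.5 TPM under MeJA, followed it with 8.45, 2.59 and 12.2 TPM in controls. In 55 of the 61 members MeJA library 1 lay between libraries 2 and 3, at a median of 0.58 of the way from library 2 to library 3. This place is not particular to the members. MeJA library 1 was neither the single highest nor the single lowest in 71 of the 76 genes and in 2420 of the 3180 genes.

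The controls of the members were uneven as well. Their coefficient of variation over the 3 controls had a median of 37.0%, over the 60 members with a control above 0, beside 26.7% in the 76 genes and 5.26% in the 3180 genes. The rule holds the members under 10 TPM in controls, which neither comparison set shares. Genes of like control level were not compared, so these medians do not show that the members are unusually uneven. Control library 3 held the highest control value in 33 members (54.1%) and control library 2 the lowest in 33. Among the 76 genes each of these shares was 61.8%, above that of the members, and among the 3180 genes they were 44.6% and 42.3%. Of the 57 members with all controls above 0, 11 had a highest control at least 4 times the lowest, and in 7 of these control library 3 was highest and library 2 lowest. Ranks 1 and 7, described above, are among those 7.

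Control order and MeJA order did not run in parallel. Among the 14 members with MeJA library 2 highest and 3 lowest, 10 had control library 3 highest and 2 lowest, and 1 had the reverse. Among the 41 members with MeJA library 3 highest and 2 lowest, the 2 control orders were found in 15 and 13 genes. Library numbers are not known to pair libraries across the groups, so a shared number has no known meaning here.

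**Figure D4:**
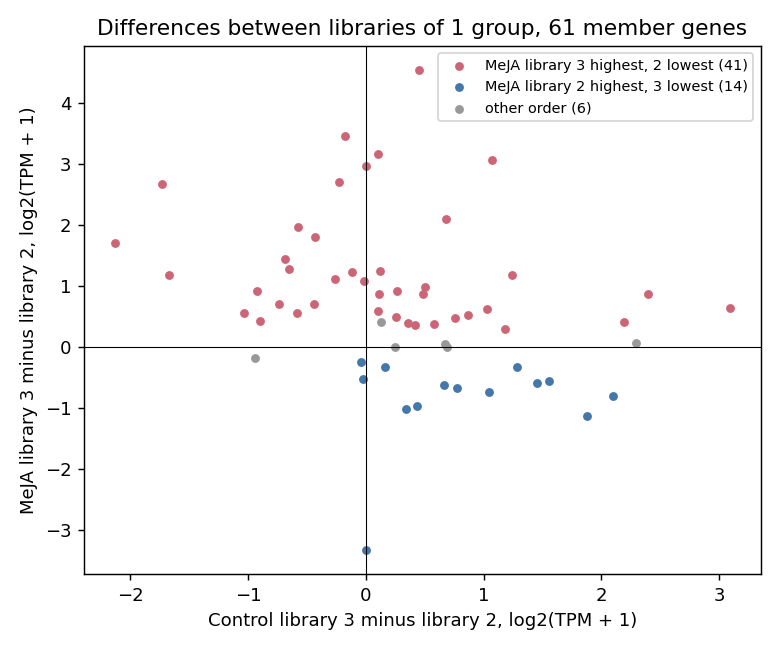
Difference between libraries 3 and 2 of the MeJA group against the same difference in the control group, on the log2(TPM + 1) scale, for the 61 member genes. The 14 genes with MeJA library 2 highest and 3 lowest (blue) lie mostly to the right of 0, the 41 with library 3 highest and 2 lowest (red) lie on both sides, and the 6 with another order are grey.

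The identifiers also give the assembly component of each gene, a graph of overlapping sequence that the assembler then splits into genes. Genes of a component can be related copies or fragments of 1 transcript, and how reads were shared between them is not stated. The 61 members fell in 59 components. Alone in its component were 23 members (37.7%), beside 23.8% of all genes. The other 38 lay in 36 components together with 126 genes that are not members.

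A pair of components held 2 members each. One of them held ranks 9 and 17, and rank 17 went from 4.10, 5.66 and 7.55 TPM in controls to 102, 83.3 and 109 TPM under MeJA. The order of the MeJA libraries was the same in both genes, while the control order was not. The other held ranks 5 and 32, in both of which MeJA library 2 was far below the rest.

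The 126 partner genes are the genes of these components that did not meet the rule. Any gene that met all 3 conditions was counted as a member instead, so the partners are not free of the choice. Shared sequence may also tie them to the members. Of the 118 that were tested, 22 (18.6%) were called higher by limma, beside 6.15% of all tested genes, and 17 (14.4%) were called lower, beside 12.6% of all tested genes. The other 79 did not pass. With median-ratio size factors 25 of 117 partners were called higher and 8 (6.84%) lower, beside 8.14% and 6.77% of all tested genes. The median difference of the tested partners was 0.11 on the log2(TPM + 1) scale. That of the members was 3.86, but the rule placed genes with a large rise among the members, so nothing is read from this contrast. Without control library 1 the partners called higher were 13, without MeJA library 1 also 13, and with libraries 2 and 3 of each group alone 2. Higher calls over all tested genes fell as well, from 3415 to 1829, 1681 and 109 in the same settings.

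Some partners moved much as the member did. The partner of rank 4 held 13.9, 3.37 and 25.9 TPM in controls and 462, 295 and 555 TPM under MeJA, a difference of 5.14 ± 0.64 (SE) on the log2(TPM + 1) scale (limma adjusted p = 0.00415). It missed membership only by its control mean of 14.4 TPM. A partner of rank 3 was listed at 0 in all 3 controls and held 24.0, 20.9 and 25.1 TPM under MeJA, a difference of 4.60 ± 0.18 (limma adjusted p = 0.000165). With all its controls at 0, the size of that difference is set by the pseudocount, and it was 7.87 with a pseudocount of 0.1. In all, 10 partners had the 4-fold gap, which 1.15% of all genes had. Of the 22 partners called higher, 15 had the same highest and the same lowest MeJA library as the leading member of their component. The same count was not taken for partners not called or for all genes. Among the 76 genes with the same gap, library 3 was highest in 56.6% and library 2 lowest in 57.9%, so nothing is read from the 15.

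Other components held genes that moved in opposite directions. Rank 53 stood at 2.78, 3.32 and 0.36 TPM in controls and 65.2, 31.6 and 72.4 TPM under MeJA, while a partner fell from 23.9, 21.4 and 23.0 TPM to 2.12, 5.45 and 0.53 TPM, a difference of -2.92 ± 0.48 (limma adjusted p = 0.0101). Rank 33 stood at 7.05, 8.36 and 4.95 TPM in controls and 71.7, 38.5 and 94.9 TPM under MeJA. One partner of it rose from 31.8, 42.5 and 25.3 TPM to 199, 229 and 183 TPM (limma adjusted p = 0.000738), and another fell from 49.5, 57.2 and 35.1 TPM to 10, 14.2 and 10.2 TPM (limma adjusted p = 0.0026). A partner called higher was present in 16 of the 36 components, a partner called lower in 13 and both in 4. Components held up to 11 partners, and lower calls among partners were near the share of all tested genes (14.4% against 12.6%). Components without a member were not counted, so nothing about the members is read from these counts. These 5 partners were picked as examples after their values were seen. With libraries 2 and 3 of each group alone, the partner of rank 3 was still called (limma adjusted p = 0.0453), and the other 4 were not, at limma adjusted p values of 0.0992 for the partner of rank 4, 0.150 for that of rank 53, and 0.0607 and 0.0916 for the higher and the lower partner of rank 33.

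**Figure D5:**
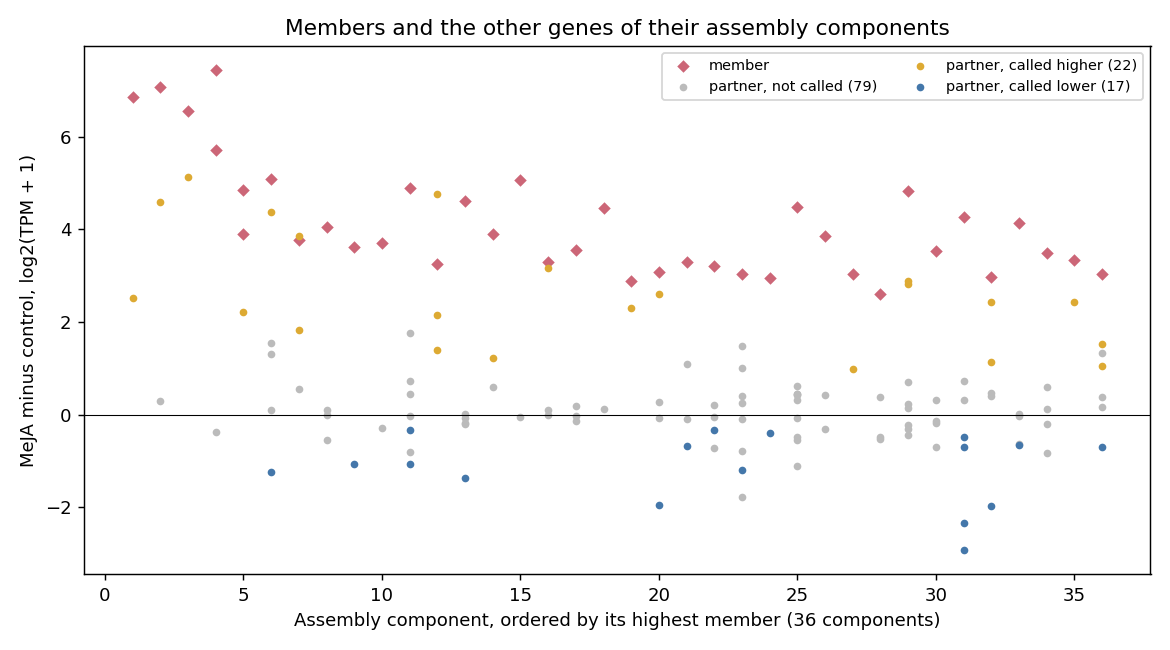
MeJA minus control difference on the log2(TPM + 1) scale for the members (red) and the tested partner genes of the 36 components that hold both, in the order of the highest member. Partners called higher (22) and lower (17) and those not called (79) are coloured apart, and most partners lie near 0. The rule placed genes with a large rise among the members, so nothing is read from the distance of the partners to them.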

How the data were processed

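The files deposited by the authors give 1 value per assembled gene in each of 6 libraries (3 control, 3 MeJA), which were grouped by their titles. The unit is unnamed. It was taken to be TPM because every library sums to 1000000 within rounding and low values share no common step. The gene identifiers in the deposited files carry the prefix of the Trinity assembler. Assembler version, quantifier and annotation: not given in the sources used here. Read depth cannot be had from TPM, so the text gives no counting interval. How reads were split between near-identical copies is not stated.

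Members were found by applying the 3 conditions to the deposited TPM without rescaling. Members, comparisons and alternatives were chosen with earlier results of these data known. All genes averaging 1 TPM or more over the 6 libraries entered limma (version 3.58.1, in R 4.3.3) as log2(TPM + 1). The fit had group as its only term and a prior variance that follows the level, tests were two-sided, and p-values were adjusted by Benjamini-Hochberg over all tested genes. The fit was tested on simulated data. Described individually are ranks 1 to 12 by MeJA mean, the 6 members under 1 TPM in controls, genes at the limits of the rule, and examples picked after their values were seen. Identifiers are printed for the member with the highest MeJA mean and for the one with the widest gap, since the files pair them with no names. Scaling, filter, pseudocount, trend, a replicate block, left-out libraries and the limits of the rule were varied.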

Additional observations from a re-analysis of the deposited data

How the results depend on the processing

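Other scalings of the library order in the comparison genes were added after seeing the data. The number of genes that met the rule, 61, was 78 with median-ratio size factors and 67 with quantile normalization, and all 61 were among them in both cases. It was 55 to 71 with 1 library left out. It became 36 with a gap of 8 times, 30 and 6 with control means under 5 and 1 TPM, and 154 and 16 with MeJA means of at least 20 and 100 TPM, as each limit keeps fewer or more genes by construction.

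Calls by limma over all genes (3415 higher, 6966 lower) were 2175 and 3573 with the library number as a replicate block and 109 and 20 with libraries 2 and 3 of each group alone. They were 4493 and 3737 with size factors, so that higher calls then outnumbered lower ones, and 2716 and 4571 without the intensity trend, where the cause was not tested. With 1 library left out they were 1681 to 3539 higher and 2471 to 8281 lower. Of the members, 18 were called with libraries 2 and 3 alone and 60 or 61 in each other setting. Partners called higher, 22, were 2 there and 13 to 26 with 1 library left out. The block left 61 members and 17 partners called higher. Across genes, the deviations from the group means correlated at 0.020, -0.013 and -0.007 between the libraries that share a number, which gives no sign of pairing.

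The members' median coefficient of variation was 14.5% to 36.6% with 1 MeJA library left out, and the SD of log2(TPM + 1) was 0.37 at the median. Their share of TPM under MeJA was 0.692% to 0.935%, and the share passing in left-out pairs 87.3% to 100%. MeJA library 3 was highest in 62.0% of the 3180 genes averaging 50 TPM or more under MeJA with size factors, and in 32.9% as deposited. Over their 14 alternatives the 2 named members and the 5 partners described kept their direction, and 6 of the 7 missed the threshold with libraries 2 and 3 alone and in no other setting. With a pseudocount of 0.1 the log2 difference moved by over 1.5 times in 2 of the 7, from 5.19 to 8.20 in TRINITY_DN3565_c0_g1 and from 4.60 to 7.87 in the partner of rank 3, both at or near 0 in controls. Without a known depth, values near 0 cannot be read closely.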
